A study of Mus musculus with 4 samples.

Results

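The genes of the collagen chains were examined in the muscularis of the mouse small intestine, with and without Dicer in smooth muscle. A collagen chain gene was taken as any whose deposited symbol has the form Col, a type number, the letter a and a chain number, and only probe sets with a single symbol were used. The rule found 78 probe sets of 39 genes among 36804 probe sets and 20461 genes with a single symbol. RNA came from the jejunal muscularis, stripped of mucosa and submucosa, of mice about 3 weeks old, and each mouse had its own Affymetrix GeneChip Mouse Genome array. The 2 smDicer KO mice were smDicer-/-;Cre-GFP/+, in which floxed Dicer is cut by a Cre recombinase that, together with eGFP, is driven by the smooth muscle myosin heavy chain promoter, so that the deletion is aimed at cells that use this promoter and not at fibroblasts or other cells of the layer. The 2 WT mice were sibling controls. The methods give the WT genotype as smMHC Cre-GFP/+ and name C57BL6 mice apart from it, with their small intestine used for organ culture. They do not state the genotype again for the 2 arrayed WT mice. For the arrayed animals a sex was stated in the methods for the smDicer KO mice (female) but not for WT. Values are log2 intensities as normalized by the authors with RMA. A value under about 6 lies near background, and the highest value on any array was 14.46.

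Collagens are triple helices of 3 chains, which may be products of the same gene or of different genes, and the type number names the molecule that the chains build. Fibrillar collagens form the tensile fibres of connective tissue, type IV forms the sheet of the basement membrane around each smooth muscle cell, type VI forms beaded filaments between fibres and basement membranes, and FACIT collagens sit on the surface of fibrils. In the gut wall these chains are made by smooth muscle cells and by fibroblasts, and they carry the force of contraction between cells. Dicer cuts precursor hairpins into mature miRNAs, and the miR-29 family among these is known to act on the mRNAs of several collagen chains.

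Marker genes of other cell types differed between the groups. A gene is said here to have passed where its unadjusted p was under 0.05 in a limma fit over all probe sets, and a gene is represented by its brightest probe set. The 13 measured genes of the mucosal epithelium had medians of 5.39 and 7.12 in the WT mice but 9.46 and 11.65 in the smDicer KO mice, and 9 of the 13 passed as higher, although the mucosa had been stripped. The 9 smooth muscle genes had medians of 13.64 and 13.54 in the WT mice and 13.30 and 12.33 in the smDicer KO mice, and 3 of them (Smtn, Lmod1 and Synpo2) passed as lower. The 9 fibroblast genes differed little, with a median log2 fold change of -0.014, and Dpt alone passed, as lower. Of 7 enteric neuron genes 6 passed as higher, with a median log2 fold change of 0.64. Of 6 mesothelium genes 3 passed as higher, with a median of 0.37. Of 8 endothelium genes 2 passed as higher, of 6 enteric glia genes 2, and of 4 genes of interstitial cells of Cajal 1. Of 6 macrophage genes 2 passed as higher and 1 as lower. Over all genes, 7.2% passed as higher and 10.5% as lower. The 4 pancreatic acinar genes reached medians of 8.44 on WT array 2 and 12.24 on smDicer KO array 2, and lay under 6 on both other arrays. All 5 bone and cartilage genes measured, the cartilage matrix genes Acan, Matn1 and Comp among them, were near background on every array. Fewer cells of a type and less RNA per cell cannot be told apart in such samples. Dicer1, the targeted gene, read 7.82 and 8.08 in WT and 7.52 and 7.36 in smDicer KO, and whether its probe set lies in the deleted part is not given in the sources used here.

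Most collagen genes differed little between smDicer KO and WT. With all 4 mice, all that passed at the brightest probe set belonged to the hexagonal network, FACIT, transmembrane and multiplexin classes. None of the 11 fibrillar, 6 type IV and 3 type VI genes passed at the brightest probe set with all 4 mice. At another probe set Col1a2, Col3a1, Col5a2 and Col4a5 did pass. Leaving out smDicer KO mouse 1 moved some of these genes further down, for example Col5a2 to -0.52, Col5a3 to -0.53 and Col4a1 to -0.38. Not every gene of these classes is listed here for that analysis, and the division by class is that of all 4 mice only. Of the 39 genes, 5 were lower in smDicer KO at an unadjusted p under 0.05 (Col23a1, Col8a2, Col9a1, Col15a1 and Col20a1), and 3 were higher (Col9a2, Col18a1 and Col13a1). These are 12.8% and 7.69% of the collagen genes, and the same calls took 10.5% (lower) and 7.2% (higher) of all 20461 genes, so that the shares lie near the background. No collagen probe set passed an adjusted p of 0.05, the share over all probe sets being 0%, and the lowest adjusted p among them was 0.215 (limma, adjusted by Benjamini-Hochberg over all 45101 probe sets). Single probe sets counted separately gave 13 of 78 lower, or 16.7%, against 9.39% of all probe sets, and 6 higher, or 7.69%, against 6.41%, and several of them belong to the same gene. The median log2 fold change over the 39 genes was -0.073, beside -0.037 over all genes, and 23 genes had a negative and 16 a positive difference. In 32 of the 39 the difference was smaller than 0.5 in either direction, a share of 82.1% beside 81.4% of all genes.

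The arrays of the groups were also compared without a test. In 10 collagen genes both smDicer KO values lay below both WT values, or 25.6% against 30.2% of all genes, and in 6 both lay above, or 15.4% against 21.5%. A log2 fold change of at least 1 with no overlap was met by 2 collagen genes in the lower direction, Col23a1 and Col8a2, which is 5.13% of the genes against a background of 1.52%. No collagen gene met it in the higher direction, where 3.63% of all genes did. With 2 arrays in each group an exact permutation test of a single gene cannot give a two-sided p below 0.333.

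**Figure D1:**
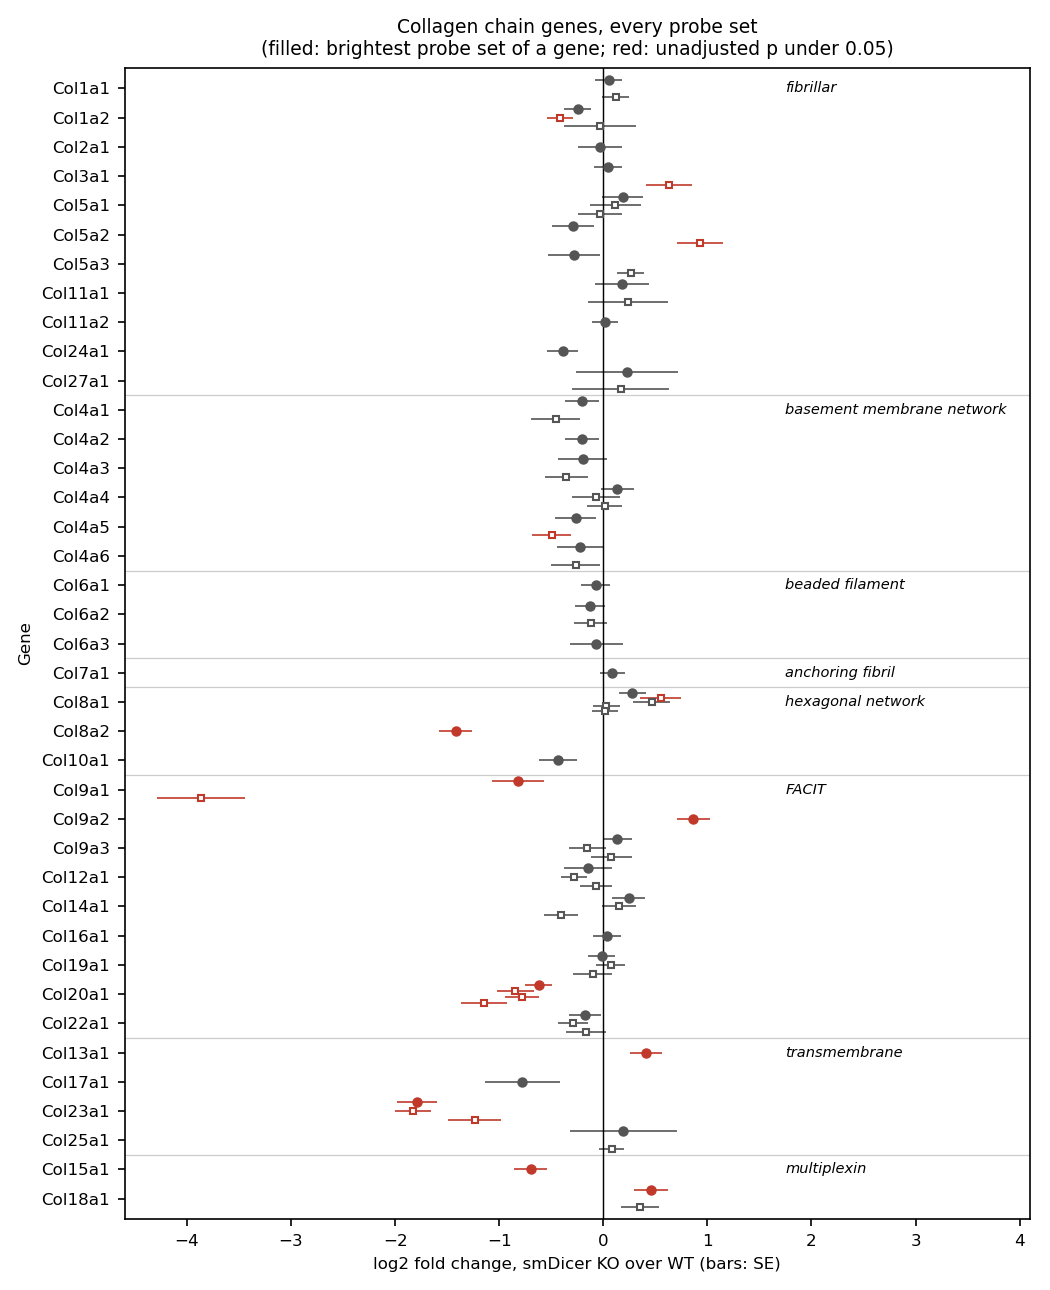
Log2 fold change of smDicer KO over WT (x axis) for each of the 78 collagen probe sets by gene (y axis), grouped by structural class, with the standard error of the limma fit as bars; filled circles are the probe set that represents a gene, open squares its other probe sets, and red marks an unadjusted p under 0.05. At their brightest probe sets the fibrillar, type IV and type VI chains lie within 0.5 of 0, while Col23a1, Col8a2, Col20a1 and Col9a1 lie to the left at every probe set.

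The largest difference at a brightest probe set was that of Col23a1, which encodes a collagen held in the cell membrane by a transmembrane segment. Its brightest probe set read 8.07 and 8.47 in WT and 6.60 and 6.36 in smDicer KO, so that every smDicer KO value lay below every WT value. The log2 fold change was -1.79 ± 0.19 (SE), or 3.46-fold lower (unadjusted p = 0.000438, adjusted p = 0.215 in limma). Both further probe sets of Col23a1 were lower as well, with log2 fold changes of -1.83 and -1.24, although their smDicer KO values, between 4.95 and 5.60, lay near background. The direction and the unadjusted call of Col23a1 held in each of 12 alternative analyses. Of these, the choice of the probe set of widest spread is no support, since it took the same probe set.

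Col8a2 encodes 1 of the 2 short chains of type VIII collagen, which builds hexagonal lattices in Descemet's membrane of the cornea and is also made by vascular cells. Its single probe set read 9.60 and 9.42 in WT and 8.21 and 7.97 in smDicer KO. No values overlapped, and all 4 lay well above background. The log2 fold change was -1.42 ± 0.15, or 2.68-fold lower (unadjusted p = 0.000445, adjusted p = 0.215 in limma), and it held in 12 of 12 alternatives. The alternatives with other choices of probe set are no support, since they could not change the values of a single probe set. The partner chain Col8a1 read 7.51 and 7.36 in WT and 7.66 and 7.76 in smDicer KO, with a log2 fold change of 0.28 that did not pass (unadjusted p = 0.0948, 95% interval -0.073 to 0.63). Of the other probe sets of Col8a1, 1 passed as higher at 0.55 (unadjusted p = 0.043), 1 gave 0.47 without passing, and the remaining pair lay at background.

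Col9a1, Col9a2 and Col9a3 encode the 3 chains of type IX collagen, a FACIT molecule best known from the surface of cartilage fibrils. The chains differed in their values here. The brighter probe set of Col9a1 read 5.96 and 6.39 in WT and 5.10 and 5.61 in smDicer KO, for a log2 fold change of -0.82 ± 0.25 (unadjusted p = 0.0273), and the other read 6.17 and 7.39 in WT and 2.93 and 2.89 in smDicer KO. At that second probe set both WT mice were above background and both smDicer KO mice were at it, and the log2 fold change was -3.87 ± 0.42 (unadjusted p = 0.000455, adjusted p = 0.215 in limma), a size that rests on where background lies on these arrays. Col9a2 read 5.17 and 5.47 in WT and 6.25 and 6.12 in smDicer KO, near background in WT and just above it in smDicer KO, with a log2 fold change of 0.86 ± 0.16 (unadjusted p = 0.00415), whose size rests on the background level in WT. It passed in 12 of 12 alternatives, of which the filter at 6 is no support, since Col9a2 clears it only through the smDicer KO arrays. The other choices of probe set are no support either, since Col9a2 has a single probe set. Col9a3 stayed near background on all 4 arrays, its highest value being 5.15. The call of Col9a1 at its brighter probe set was lost without WT mouse 2 (log2 fold change -0.60) and without smDicer KO mouse 1 (-0.56). It was also lost in the unmoderated model (unadjusted p = 0.136). Only WT mouse 2 reached 6 at this probe set, so it lay near background and did not enter the analysis filtered at 6.

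Col20a1, another FACIT gene, was lower at each of its 4 probe sets. The brightest read 7.57 and 7.75 in WT and 7.05 and 7.03 in smDicer KO, with a log2 fold change of -0.62 ± 0.13 (unadjusted p = 0.00688), and the others gave -0.85, -0.78 and -1.15. The probe set that gave -1.15 lay under 6 on all 4 arrays, so its size is limited by background. The one that gave -0.78 read 6.05 and 5.88 in smDicer KO, close to background. The 4 probe sets share the RNA of the same 4 mice and are not separate evidence from further animals. Without WT mouse 2 the brightest gave -0.53 and no longer passed (unadjusted p = 0.051).

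Types XV and XVIII are the multiplexins, basement membrane collagens with sugar side chains, whose ends are known to be released as fragments such as endostatin, and their genes went in opposite directions. Col15a1 read 8.59 and 8.59 in WT and 8.05 and 7.74 in smDicer KO, for a log2 fold change of -0.70 ± 0.16, or 1.62-fold lower (unadjusted p = 0.00858). It no longer passed without WT mouse 1 (unadjusted p = 0.0603) or WT mouse 2 (unadjusted p = 0.0596), at log2 fold changes of -0.70 and -0.70. Col18a1, the source of endostatin, read 9.29 and 9.22 in WT and 9.89 and 9.54 in smDicer KO, for a log2 fold change of 0.46 ± 0.17 (unadjusted p = 0.0438), and its second probe set gave 0.35 without passing (unadjusted p = 0.113).

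Col13a1, a transmembrane collagen of cell adhesion sites and the neuromuscular junction, read 6.96 and 6.69 in WT and 7.19 and 7.28 in smDicer KO, for a log2 fold change of 0.41 ± 0.15 (unadjusted p = 0.048). Its call was lost in 9 of 12 alternatives, among them each of the 4 analyses without 1 mouse, where the log2 fold change ran from 0.27 to 0.54. That of Col18a1 was lost in 7 of 12, among them those without WT mouse 1, WT mouse 2 or smDicer KO mouse 1, at 0.49, 0.43 and 0.29. The 5 collagen genes that were lower in smDicer KO were lower in the same animals whose smooth muscle genes had lower medians, and the part of that difference in these values was not tested. The 3 collagen genes that were higher in smDicer KO were higher in the same animals whose muscularis had more mucosal epithelial RNA. In these animals the enteric neuron and mesothelium genes were higher. Other lists were mixed: of the endothelium genes 4 were higher and 4 lower, with a median log2 fold change of 0.062. Of the enteric glia genes 5 were higher and 1 lower, and of the interstitial cell of Cajal genes 3 and 1. Of the macrophage genes 4 were higher and 2 lower. The counts that passed, and the medians of the smooth muscle, epithelial, neuron and mesothelium genes, are given above. The part of any of these in the values was not tested.

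**Figure D2:**
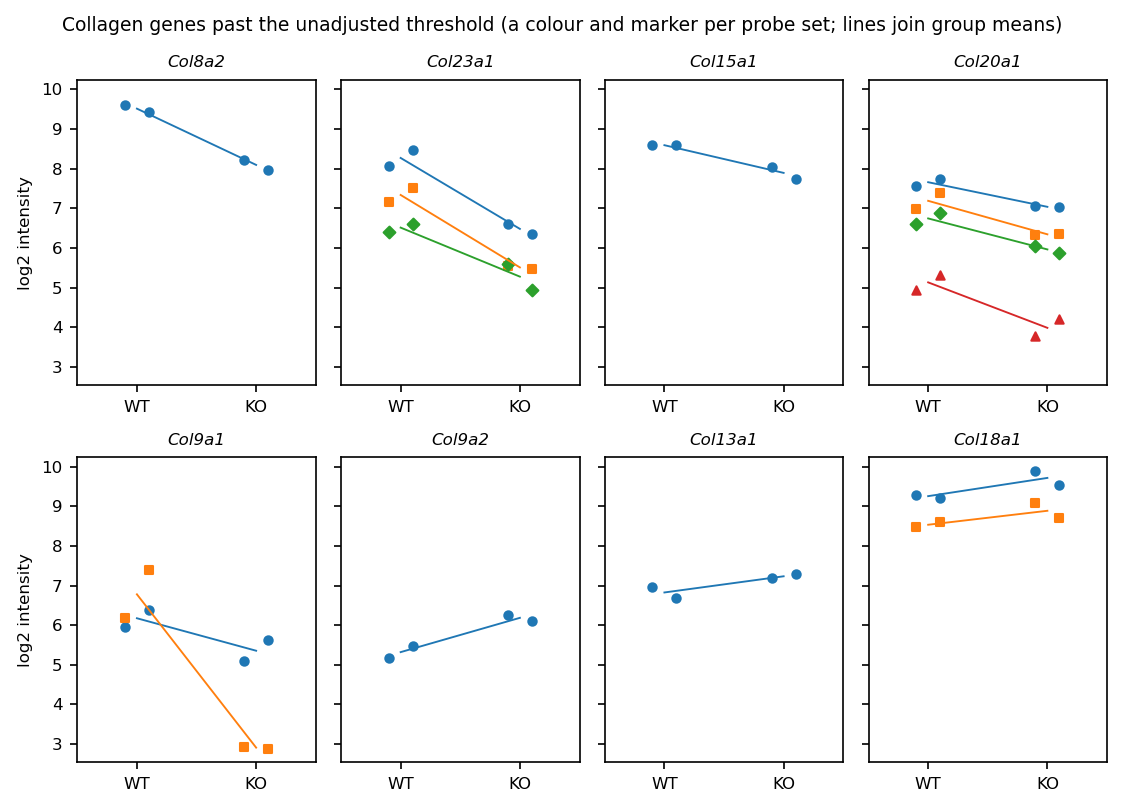
Log2 intensity (y axis) on the 2 WT and 2 smDicer KO arrays for the 8 collagen genes past the unadjusted threshold, with a colour and marker for each probe set of a gene and lines that join the group means. Col8a2, Col23a1, Col15a1, Col20a1 and Col9a1 are lower on both smDicer KO arrays at every probe set, and Col9a2, Col13a1 and Col18a1 are higher.

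The sequences before the transcription starts are shown for Col23a1 and Col8a2, the 2 genes lower by more than 1 on the log2 scale at the brightest probe set, and for Col9a1, which has separate starts in RefSeq and probe sets with unlike values. Each covers the 250 bases before an annotated start in RefSeq on build GRCm38.p6, on the plus strand, with matches to the CCAAT box (CCAAT), the GC box (GGGCGG), the CArG box and the TATA box (TATAAA) on either strand in capitals. The CArG box is the element bound by serum response factor, which drives many smooth muscle genes.
Col23a1, chr11:51289670-51289919: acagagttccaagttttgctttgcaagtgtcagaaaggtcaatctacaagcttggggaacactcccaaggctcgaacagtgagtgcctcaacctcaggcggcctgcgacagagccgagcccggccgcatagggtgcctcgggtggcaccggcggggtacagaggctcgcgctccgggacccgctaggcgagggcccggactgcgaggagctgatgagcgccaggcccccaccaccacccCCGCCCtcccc
Col8a2, chr4:126286544-126286793: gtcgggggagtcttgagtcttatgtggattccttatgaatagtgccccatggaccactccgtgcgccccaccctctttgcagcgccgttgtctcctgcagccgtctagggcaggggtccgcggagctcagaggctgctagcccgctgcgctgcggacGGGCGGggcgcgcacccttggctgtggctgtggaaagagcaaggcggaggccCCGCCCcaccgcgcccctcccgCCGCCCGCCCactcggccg
Col9a1, first start, chr1:24177360-24177609: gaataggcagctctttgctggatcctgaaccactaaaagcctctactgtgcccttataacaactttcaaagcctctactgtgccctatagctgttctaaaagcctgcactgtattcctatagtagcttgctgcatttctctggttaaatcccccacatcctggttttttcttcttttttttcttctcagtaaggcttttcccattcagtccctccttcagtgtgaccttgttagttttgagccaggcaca
Col9a1, second start, chr1:24194953-24195202: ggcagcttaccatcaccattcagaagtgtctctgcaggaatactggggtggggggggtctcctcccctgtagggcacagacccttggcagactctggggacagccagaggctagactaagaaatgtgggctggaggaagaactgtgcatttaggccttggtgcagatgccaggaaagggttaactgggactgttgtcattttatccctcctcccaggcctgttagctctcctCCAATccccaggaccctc
The Col8a2 window held 4 GC boxes, a pair of which overlap, the Col23a1 window held 1, and the first Col9a1 window held none of the 4 elements, while the second held 1 CCAAT box. The files do not tie the probe sets of Col9a1 to either start.

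RefSeq windows of 250 bases before to 50 after a start were found for 31 of the 39 collagen genes, as 34 windows, and were set against all 32851 windows of the table. The GC box was in 20 of the 34, or 58.8%, beside 35.7% of all windows. The CCAAT box was in 12, or 35.3%, beside 37.4%, and the TATA box in 5, or 14.7%, beside 13.6%. None of the 34 held a CArG box, which was in 1.63% of all windows. These are matches of letters in short windows and say nothing of binding.

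The chains of types I, III, V and VI, which make up the bulk of interstitial collagen, lay close to their WT levels at their brightest probe sets, and none of these 9 genes passed. Col1a1 read 12.03 and 12.07 in WT and 12.18 and 12.02 in smDicer KO, and the values of the groups overlapped, with a log2 fold change of 0.053 (95% interval -0.29 to 0.40). Its partner in type I collagen, Col1a2, read 13.28 and 13.27 in WT and 13.11 and 12.95 in smDicer KO, for a log2 fold change of -0.25 (95% interval -0.59 to 0.095). Both smDicer KO values of Col1a2 were below both WT values. Col3a1, the only chain of type III, read 13.83 and 13.96 in WT and 14.003 and 13.87 in smDicer KO, for a log2 fold change of 0.045 (95% interval -0.31 to 0.40), close to the highest values that these arrays held.

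Type V collagen sits inside type I fibrils and controls their width. Its chains gave log2 fold changes of 0.19 for Col5a1, -0.29 for Col5a2 and -0.28 for Col5a3, and the groups overlapped in all 3. The 95% interval was -0.33 to 0.70 for Col5a1, -0.82 to 0.24 for Col5a2 and -0.95 to 0.38 for Col5a3. The 3 chains that build type VI together gave -0.073 for Col6a1, -0.13 for Col6a2 and -0.069 for Col6a3, again with overlapping values. The 95% interval was -0.45 to 0.30 for Col6a1, -0.52 to 0.26 for Col6a2 and -0.74 to 0.61 for Col6a3.

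Different probe sets of the same fibrillar gene did not always give the same answer. The second probe set of Col5a2 read 9.77 and 9.63 in WT and 10.90 and 10.35 in smDicer KO, for a log2 fold change of 0.93 ± 0.22 that passed as higher (unadjusted p = 0.0109), while the brighter one read 12.10 and 11.97 in WT and 11.98 and 11.52 in smDicer KO and had the opposite sign. The second probe set of Col3a1 read 11.07 and 11.29 in WT and 12.07 and 11.56 in smDicer KO and passed as higher at 0.63 ± 0.22 (unadjusted p = 0.0388). For Col1a2 the second probe set passed as lower at -0.41 ± 0.12 (unadjusted p = 0.0245), in the same direction as the first. Of the 17 collagen genes with at least 2 probe sets whose mean was 6 or more, 14 had the same sign at all of these and 3 did not. Where in each transcript the probe sets lie was not examined here.

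**Figure D3:**
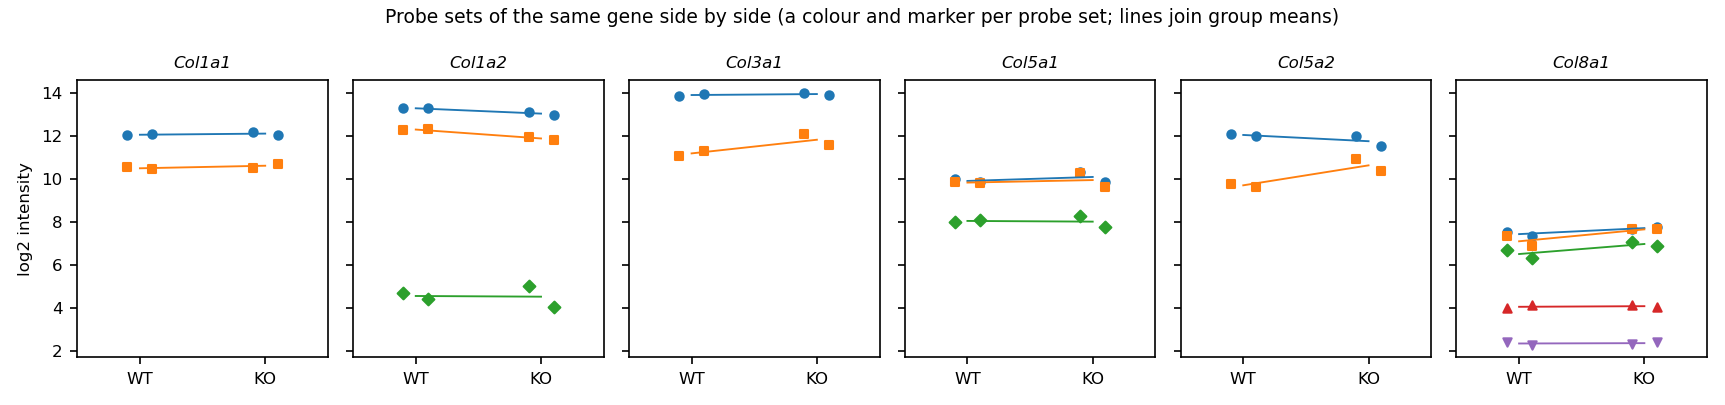
Log2 intensity (y axis) on the 2 WT and 2 smDicer KO arrays at each probe set of Col1a1, Col1a2, Col3a1, Col5a1, Col5a2 and Col8a1, with a colour and marker per probe set and lines that join the group means. The second probe sets of Col3a1 and Col5a2 (orange) rise from WT to KO by 0.63 and 0.93, while the brightest ones (blue) differ by 0.045 and -0.29.

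Type IV collagen forms the basement membrane network, and none of its 6 genes passed at the brightest probe set. Col4a1 and Col4a2, whose chains assemble with each other in nearly every basement membrane, gave like differences. Col4a1 read 13.12 and 13.15 in WT and 13.10 and 12.76 in smDicer KO, for a log2 fold change of -0.20 (95% interval -0.64 to 0.23), and Col4a2 read 12.18 and 12.30 in WT and 12.19 and 11.88 in smDicer KO, for a log2 fold change of -0.21 (95% interval -0.64 to 0.22). In both genes smDicer KO mouse 1 lay close to the WT mice and smDicer KO mouse 2 was the lowest of the 4. The genes lie head to head on opposite strands of chromosome 8. Their start sites in RefSeq are 21 bases apart, and the annotated transcripts overlap over that stretch rather than leave a gap. Col4a5 and Col4a6, whose chains are known from the basement membranes of smooth muscle, gave -0.26 and -0.23, and the dimmer probe set of Col4a5 passed as lower at -0.50 (unadjusted p = 0.0497). Col4a3 and Col4a4, best known from the kidney, gave -0.20 and 0.13.

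The 4 genes Col4a3 to Col4a6 shared an order among the mice within each group. All 9 of their probe sets read higher on WT array 2 than on WT array 1 and higher on smDicer KO array 2 than on smDicer KO array 1, an order that 22.7% of all genes showed and 8 of the 39 collagen genes. Col4a3, for example, read 6.09 and 6.34 in WT and 5.74 and 6.29 in smDicer KO. Array 2 of each group was also the one with pancreatic acinar RNA, at the medians given above, and with the higher median of the mucosal epithelial genes, and the part of either in these chains was not tested.

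Most other collagens were instead higher in smDicer KO mouse 1 than in smDicer KO mouse 2. This held for 29 of the 39 genes and for all 11 fibrillar ones, beside 54.5% of all genes. The median difference between these mice was 0.17 over the collagen genes and 0.037 over all genes, and between the WT mice it was 0.014 and 0.0038. The widest gap was in Col27a1, a fibrillar gene, which read 8.58 and 8.50 in WT and 9.48 and 8.06 in smDicer KO, so that smDicer KO mouse 1 was above and smDicer KO mouse 2 below both WT mice. Its second probe set showed the same order at 7.99 and 7.94 in WT and 8.81 and 7.46 in smDicer KO. Col25a1, a transmembrane collagen of neurons, read 6.72 and 6.10 in WT and 7.29 and 5.92 in smDicer KO, but its other probe set did not show this gap. The smooth muscle genes had their lower median in smDicer KO mouse 2 as well, and the enteric neuron genes had medians of 10.37 in mouse 1 and 9.80 in mouse 2, beside 9.52 and 9.31 in WT; the part of these differences in the collagen values was not tested.

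**Figure D4:**
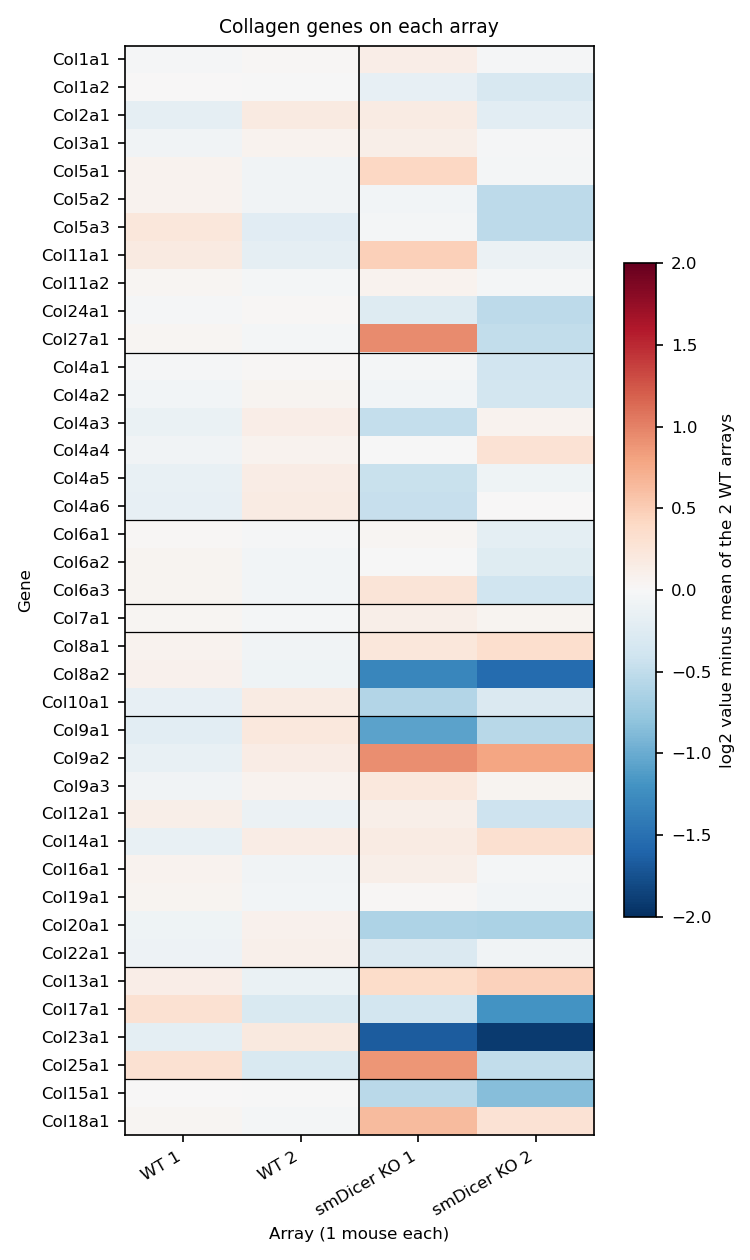
Log2 value minus the mean of the 2 WT arrays (colour, from -2 to 2) for the 39 collagen genes (rows, grouped by structural class) on the 4 arrays (columns). Col8a2 and Col23a1 are dark blue on both smDicer KO arrays, while Col27a1 and Col25a1 are red on smDicer KO array 1 and blue on array 2.

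The remaining 14 collagen genes include those of cartilage and skin, and none of them passed at the brightest probe set. Their log2 fold changes ran from -0.78 in Col17a1 to 0.24 in Col14a1, and 7 had a mean of at least 6. Col12a1, Col14a1 and Col16a1, FACIT genes of soft connective tissue, read well above background and gave -0.15, 0.24 and 0.034. Col2a1, the fibrillar chain of cartilage, and Col10a1, the chain of growth plate cartilage, were near background on all 4 arrays, as were Col11a2, Col19a1, Col22a1 and Col24a1. Col17a1, known from the anchoring of skin epithelium, lay near background too and had its lowest value in smDicer KO mouse 2, at 3.68. Col7a1, the anchoring fibril chain, lay at the edge of background and gave 0.088.

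The miR-29 family bears on this question because its mature forms need Dicer and because several measured chain genes are known targets. A list of 9 such genes was written for this report. It was not drawn from a target table and is not held to be complete. The mature miRNAs as listed by RefSeq, 5′ to 3′, have the seed (bases 2 to 8) in capitals and share it.
miR-29a-3p: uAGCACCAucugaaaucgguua
miR-29b-3p: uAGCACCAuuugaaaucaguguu
miR-29c-3p: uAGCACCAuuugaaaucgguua
miR-29a lies at chr6:31062673-31062694 and miR-29c at chr1:195037600-195037621 of build GRCm38.p6, and miR-29b has 2 copies, at chr1:195037091-195037113 and chr6:31063025-31063047. Mature miRNAs were not measured by these arrays. By qPCR, the authors reported miR-29c-3p as greatly reduced in smDicer KO muscle tissue and undetected in sorted smDicer KO smooth muscle cells. Of the 9 target chains (Col1a1, Col1a2, Col3a1, Col4a1, Col4a2, Col5a1, Col5a2, Col5a3 and Col15a1), none passed as higher in smDicer KO at the brightest probe set and Col15a1 alone passed as lower, where 7.2% and 10.5% of all genes did. The median log2 fold change of the 9 was -0.21, beside -0.037 for all genes, and 3 of the 9 had a positive difference, the highest being 0.19 in Col5a1. The dimmer probe sets of Col3a1 and Col5a2 that passed as higher belong to this list, and so does the dimmer probe set of Col1a2 that passed as lower.

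Beyond the chains, 78 genes that fold, secrete, cut, bind, break down or regulate collagen were measured, and 9 of these were lower and 6 higher at an unadjusted p under 0.05, where 10.5% and 7.2% of all genes were, with a median log2 fold change of -0.10. Among 18 genes of folding and hydroxylation in the endoplasmic reticulum, 2 were lower and none higher. Fkbp14, a peptidyl prolyl isomerase, read 8.67 and 8.35 in WT and 7.94 and 7.47 in smDicer KO and fell by 0.81 on the log2 scale (unadjusted p = 0.0178). Crtap, part of the prolyl 3-hydroxylation complex, read 9.63 and 9.40 in WT and 9.18 and 8.89 in smDicer KO and fell by 0.48 (unadjusted p = 0.0411). Serpinh1, the collagen chaperone Hsp47, was the brightest gene of the list and read 12.58 and 12.22 in WT and 12.17 and 11.56 in smDicer KO. Its log2 fold change of -0.53 did not pass (unadjusted p = 0.105 in limma). Ppib, the next brightest, gave 0.048 and did not pass.

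Among 8 genes of export from the endoplasmic reticulum, 2 were higher and none lower, where 7.2% and 10.5% of all genes were. The brightest of these, Sar1b and Sec23a, gave 0.068 and 0.11 without passing. Ctage5, which with Mia3 loads large procollagen cargo, read 6.78 and 6.71 in WT and 7.22 and 7.998 in smDicer KO, a rise of 0.86 (unadjusted p = 0.0345), and Creb3l1, a transcription factor known to raise secretory and collagen genes, read 8.19 and 7.69 in WT and 8.55 and 8.45 in smDicer KO, a rise of 0.56 (unadjusted p = 0.0459). Of 7 genes of propeptide cleavage, the proteases and enhancers that free the helix for fibril formation, Adamts3 alone passed, as lower, and lay near background. Pcolce and Adamts2, the brightest of these, gave -0.11 and 0.053.

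Among 13 genes of cross-linking and fibril assembly, 3 were lower and 1 was higher, beside 10.5% and 7.2% of all genes. Lox, the enzyme that starts covalent cross-links between chains, read 8.69 and 8.26 in WT and 8.98 and 9.35 in smDicer KO, a rise of 0.69 (unadjusted p = 0.0321). Dpt, a small protein that speeds fibril formation, read 11.71 and 11.65 in WT and 11.19 and 10.43 in smDicer KO and fell by 0.87 (unadjusted p = 0.0304), and Postn, a matrix protein that brings collagen and cross-linking enzymes together, read 12.82 and 12.75 in WT and 12.46 and 11.91 in smDicer KO and fell by 0.60 (unadjusted p = 0.0434). Bgn, a proteoglycan bound to fibrils, was the third, at -0.39. Sparc and Dcn, the brightest of the list, gave 0.062 and 0.075. Dpt was also among the fibroblast genes given above.

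Of 9 collagen receptors and uptake genes, Ddr2, a receptor tyrosine kinase for fibrillar collagen, alone passed, as lower, where 10.5% of all genes did. It read 10.91 and 11.06 in WT and 10.63 and 10.07 in smDicer KO and fell by 0.63 (unadjusted p = 0.0436 in limma). Itgb1, the brightest of the receptor genes, gave -0.57 without passing. Of 9 genes of collagen breakdown, Ctsk, a protease that cuts the helix, read 7.73 and 7.95 in WT and 7.37 and 7.30 in smDicer KO and fell by 0.50 (unadjusted p = 0.0192), and the collagenase Mmp13 passed as higher at values near background. Timp2 and Timp3, the brightest of the breakdown list, gave -0.11 and -0.28 and did not pass. Of 14 regulators of collagen genes, 1 was lower and 2 were higher, where 10.5% and 7.2% of all genes were. The brightest of these, Tgfbr2, gave 0.059 without passing. Ctgf, a secreted protein induced by TGF-beta, read 10.06 and 9.71 in WT and 10.77 and 10.999 in smDicer KO, a rise of 0.998 ± 0.18, or 2.00-fold (unadjusted p = 0.00403, adjusted p = 0.229 in limma). Cbfb, the partner of the Runx factors, rose by 0.56 (unadjusted p = 0.0198), and Nfyb, a subunit of the factor that binds the CCAAT box, fell by 0.40 (unadjusted p = 0.0424).

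**Figure D5:**
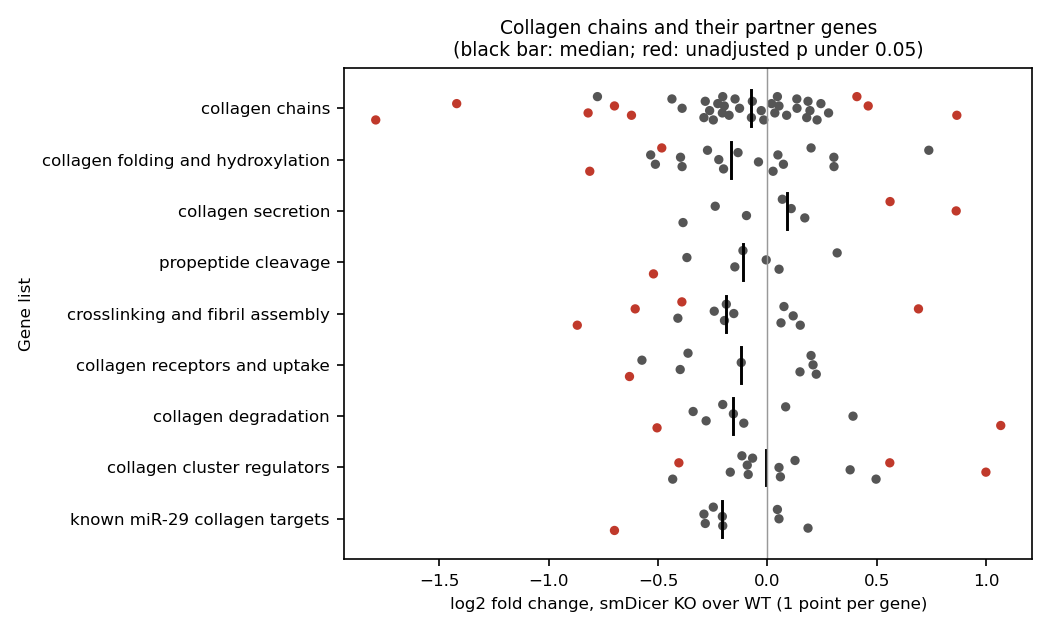
Log2 fold change of smDicer KO over WT (x axis) for each gene of the collagen chains and of 8 lists of collagen-related genes (y axis), the last of which repeats 9 of the chains, 1 point per gene, with the list median as a black bar and red for an unadjusted p under 0.05. The list medians lie between -0.21 and 0.088, and Col23a1 and Col8a2 lie farthest to the left.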

How the data were processed

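The authors normalized the arrays with RMA in Omicsoft Array Studio, whose version is not given in the sources used here, and deposited 1 log2 intensity per probe set and array (45101 probe sets, 4 arrays). RMA subtracts background, brings the arrays to a common distribution and reduces each probe set to a single value. Gene symbols came from the deposited annotation, in which 2005 probe sets with several symbols were left out of the genes. The authors' own columns of fold change and p-value per probe set were left aside.

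The log2 values were fitted in R 4.3.3 using limma 3.58.1 (functions lmFit and eBayes), comparing the 2 smDicer KO with the 2 WT arrays without a covariate, and Benjamini-Hochberg adjustment ran over all probe sets. For each gene the brightest probe set, by its mean on the 4 arrays, was taken. An unadjusted p under 0.05 was used to count genes. Arrays give no counts, so their number limits the precision, and the labels do not say whether the mice came from separate litters.

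Collagen genes were named if their unadjusted p was under 0.05 with a mean of at least 6 in a group, if they were partner chains of these, or if they belonged to types I, III, IV, V or VI. Partner genes were named if they were among the 3 with the largest change past the threshold at that level, or the 2 brightest of a list. Bgn, Adamts3, Mmp13, Col27a1, Col25a1 and other genes outside these rules were chosen after their values were seen. The members and lists were chosen with earlier results of these data known. The alternatives were leaving out each mouse in turn, a replicate block, a linear model without moderation, eBayes with its trend and robust options, cyclic loess, centring arrays on their medians, a filter at 6 on at least 2 arrays, other choices of probe set and a fold limit without p.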

Additional observations from a re-analysis of the deposited data

How the results depend on the processing

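The counts of 5 lower and 3 higher collagen genes rest on 2 mice per group and on unadjusted p-values. With 1 mouse left out, the lower count ran from 2 to 9 and the higher count from 1 to 3, where the lone mouse is assumed to vary like the others. The lower count was 2 without WT mouse 2 and 9 without smDicer KO mouse 1, where 3.54% and 14.2% of all genes were lower, and the higher count was 1 without WT mouse 1, WT mouse 2 or smDicer KO mouse 1, where 2.31%, 2.00% and 11.2% of all genes were higher. The median log2 fold change ran from -0.19 without smDicer KO mouse 1 to 0.025 without smDicer KO mouse 2. The higher count was 1 under centring on array medians, 1 under the filter at 6 and 1 in the unmoderated model, where 6.23%, 9.52% and 3.73% of all genes were higher. The gene left by the filter was Col9a2, which clears it only through its smDicer KO arrays. The higher count was 6 (8.0% of all genes) with the probe set of widest spread per gene, a choice that favours change by its construction. A log2 fold change of at least 1 with no overlap left 2 lower and 0 higher. No collagen probe set passed the adjusted p in any alternative with probe sets, against 19 of 78 at the unadjusted p in the main analysis. The replicate numbers name no shared litter or day. The replicate block gave 7 lower and 2 higher genes (8.92% and 7.63% of all genes), and the deviations of same-numbered arrays correlated at 0.25. Col23a1 and Col8a2 passed in all 12 alternatives, and Col9a2 in the 11 other than the filter. Col13a1 lost its call in 9, Col18a1 in 7 and Col9a1 in 3, and Col9a1 did not enter the filtered fit. The choice of widest spread took the same probe set as the main analysis for Col23a1 and Col18a1. Col8a2, Col9a2, Col13a1 and Col15a1 have a single probe set, so that other choices of probe set could not change their values. Calls that held under such choices are no support. None of the genes whose sign turned had passed: cyclic loess gave 0.058 for Col6a1, 0.0036 for Col6a2 and 0.062 for Col6a3. Averaging probe sets gave 0.32 for Col5a2. The widest spread gave 0.93 for Col5a2 and -0.070 for Col4a4. With 1 mouse left out, the log2 fold change ran from -0.030 to 0.14 in Col1a1, -0.022 to 0.11 in Col3a1, -0.037 to 0.41 in Col5a1, -0.47 to 0.077 in Col4a3, -0.46 to 0.0047 in Col4a6, -0.014 to 0.28 in Col4a4, -0.19 to 0.042 in Col6a1 and -0.40 to 0.26 in Col6a3. The cause of these turns was not tested. Values under about 6, as in Col9a3 or the second Col9a1 probe set in smDicer KO, are limited by background.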
